A study of Mus musculus with 12 samples.

Results

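The genes described here encode the writers and readers of histone H3 lysine 9 (H3K9) methylation in mouse ESCs. They are the H3K9 methyltransferase genes Setdb1, Suv39h1, Suv39h2, Ehmt1 and Ehmt2, the cofactor genes Atf7ip and Trim28, and the heterochromatin protein 1 (HP1) genes Cbx1, Cbx3 and Cbx5. They were chosen by name, which gave 10 rows of the 26061 in the deposited gene table, and all 10 passed the filter on low values that left 14185 genes to test. All libraries came from Tet2 KO mouse ESCs that were stably rescued with a construct for WT TET2 or for its catalytic mutant, and all carried the shRNA against Setdb1 (shSetdb1), delivered by lentivirus and selected with puromycin. Each rescue line was grown without feeders in 2i medium with LIF (naïve) or in serum with LIF (primed), with 3 libraries per group and 12 in all. Every level below is therefore a level under shSetdb1, and controls with another shRNA are not analysed here. It was not given in the labels whether the 3 libraries of a group came from separate cultures, so the p-values measure the spread between these libraries.

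SETDB1 trimethylates H3K9 at endogenous retroviruses (ERVs) in ESCs, where KRAB zinc finger proteins bind the element and TRIM28, also called KAP1, links them to SETDB1 and HP1. ATF7IP binds SETDB1 and keeps it stable in the nucleus. SUV39H1 and SUV39H2 trimethylate H3K9 mainly at pericentromeric repeats, EHMT1 (GLP) and EHMT2 (G9a) form a heterodimer that places mono- and dimethylation, and the HP1 proteins bind methylated H3K9 through their chromodomain.

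The values are variance-stabilised and on a log2 scale, and inverting the transformation gave whole reads, with 8066662 to 21335933 gene reads per library. The ESC markers Pou5f1, Sox2, Nanog, Sall4 and Zfp42 summed to between 3060 and 3830 CPM (reads of a gene scaled to the gene reads of its library) everywhere. Of these 5 markers, 1 was higher and 2 were lower in naïve ESCs (limma, adjusted p under 0.05). The 6 primed markers summed to 107 to 255 CPM in naïve and 712 to 1230 CPM in primed libraries, and the 5 of them that were tested were all lower in naïve ESCs, whereas of 6 naïve markers 3 were higher (Tfcp2l1, listed as Tcfcp2l1, Prdm14 and Klf4), 1 was lower (Nr0b1) and 2 were not called. Markers of other cell types summed to less than the ESC markers in every library, with the neural marker Pax6 the highest of them. Primitive endoderm markers summed to at most 6.74 CPM. Trophoblast markers summed to at most 0.166 CPM in naïve and to 1.62 to 5.95 CPM in primed libraries, and streak markers to 2.50 to 3.66 and 9.07 to 14.6 CPM. Fibroblast markers summed to 2.58 to 7.47 CPM in naïve and 1.17 to 1.64 CPM in primed libraries, with Col1a2 and Col3a1 at 0 reads in every library and Thy1 higher in naïve ESCs by 1.13 on the log2 scale. The neural marker Pax6 was at 11.3 to 16.8 CPM in naïve and 33.3 to 42.9 CPM in primed libraries, and the streak marker Eomes was lower in naïve ESCs by a log2 difference of -1.51. The part of these marker differences in the results between media was not tested. In bulk RNA, fewer cells with a transcript and less transcript per cell cannot be told apart.

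The genes were first ordered by level per length, which was calculated as RPKM (CPM per kilobase of annotated exon) and averaged over the 4 groups. Trim28 stood far above the rest at 449.4 RPKM, with 215.2 in its lowest and 709.6 in its highest library. The HP1β gene Cbx1 followed at 126.8 RPKM, and both steps of this order, Trim28 over Cbx1 and Cbx1 over the HP1α gene Cbx5, held in 12 of 12 libraries. Cbx5, the HP1γ gene Cbx3, Atf7ip and Ehmt2 lay close together, at 39.0, 33.9, 30.2 and 24.1. Each exceeded the next in only 8, 8 and 9 of 12 libraries, so their order is within the spread. The level of Cbx3 holds only the reads of its own row. Near-identical copies, described below, hold further reads, so the place of Cbx3 may be too low. Ehmt2 exceeded Suv39h2 (14.2) in 12 of 12 libraries, but Suv39h2 exceeded Ehmt1 (11.6) in only 9. Suv39h1 (5.81) and Setdb1 (2.85) were lowest, and Setdb1 was below Suv39h1 in every library. Setdb1 therefore made up the smallest share of the summed level of the 5 methyltransferase genes, between 4.42% ± 1.38 and 5.28% ± 1.95 in the 4 groups (SD, n = 3 each), while Ehmt2 made up 39.6% ± 3.27 to 45.5% ± 2.66 (SD, n = 3 each). With the longest transcript as gene length, Cbx5 moved below Cbx3 and Atf7ip, and Suv39h2 moved below Ehmt1, while the first 2 and the last 2 places stayed the same.

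**Figure D1:**
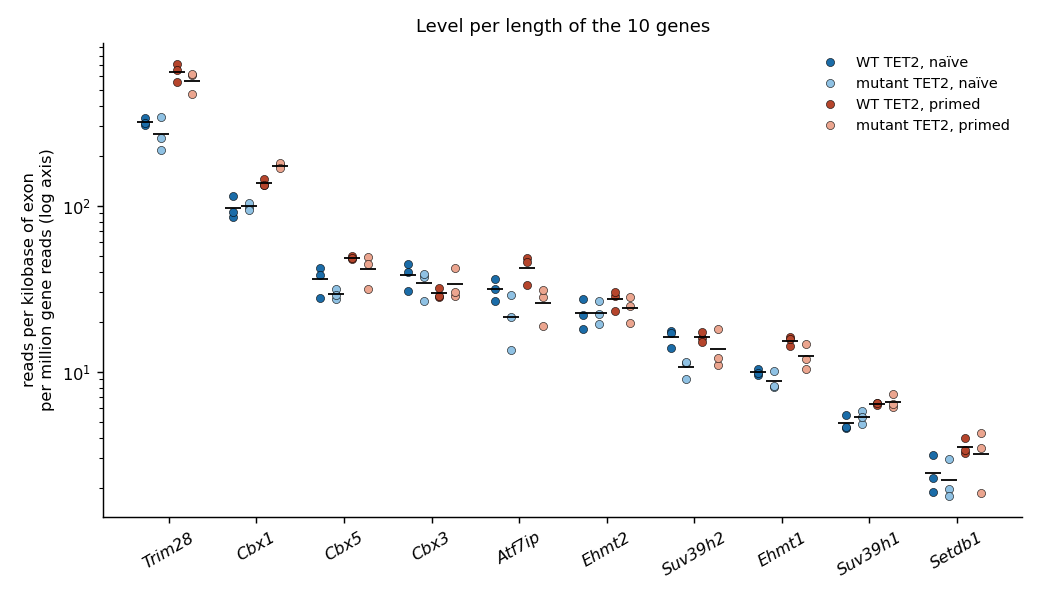
Level per length in RPKM (log axis) for the 10 genes, ordered by their mean over the 4 groups, with a point per library and a black line for the group mean (n = 3). Trim28 lies between 215.2 and 709.6 and Setdb1 between 1.79 and 4.28, and the genes from Cbx5 to Ehmt2 overlap.

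Setdb1, the gene targeted by the shRNA, occupies 95127447 to 95161124 of chromosome 3 (mm9, minus strand). Its reads ranged from 114 to 585 per library, and its exons share 64 bases with Lass2 on the opposite strand. An RT-qPCR primer pair for its transcript lies in exons 8 and 9 of the longest annotated transcript of 21 exons (chr3:95149455-95149475 and chr3:95145690-95145709). The pair is shown because it lies outside the copied coding bases described next.
Setdb1 forward: tcagagctttatcccatttgc
Setdb1 reverse: cggtttggataggcagtgat

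The first 414 coding bases of Setdb1 were found again in Gm4349, an annotated lincRNA on the same chromosome (positions 95231593 to 95235009, plus strand) that has its own row in the table. The first coding stretch is printed for both places, at chr3:95159855-95160115 in Setdb1 and chr3:95232485-95232745 in Gm4349. They differ at 1 of 261 bases, C159T, counted from 1 at the start codon and in capitals, and the stretch from coding base 258 to 414 was identical at both places.
Setdb1: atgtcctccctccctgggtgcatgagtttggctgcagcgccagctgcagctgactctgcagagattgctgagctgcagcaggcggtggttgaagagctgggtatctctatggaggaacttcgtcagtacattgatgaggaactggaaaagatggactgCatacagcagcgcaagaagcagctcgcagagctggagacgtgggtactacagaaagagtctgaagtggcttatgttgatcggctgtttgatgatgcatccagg
Gm4349: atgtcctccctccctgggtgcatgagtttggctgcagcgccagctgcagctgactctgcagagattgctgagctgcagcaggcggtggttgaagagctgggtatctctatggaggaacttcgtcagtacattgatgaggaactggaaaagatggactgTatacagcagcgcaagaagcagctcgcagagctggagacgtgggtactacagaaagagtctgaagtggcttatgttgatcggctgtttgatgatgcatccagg
In the deposited alignments, a read with tied positions was placed at random at 1 of them. An exact copy in Gm4349 was found for 7.19% of the 75-base windows of the Setdb1 exons (387 windows). Of the windows of the Gm4349 exons, 33.1% (815 windows) were found in the genomic span of Setdb1, introns included. Gm4349 had 22 to 97 reads in primed and 136 to 339 reads in naïve libraries against 137 to 412 naïve reads of Setdb1. Gm4349 rose in naïve ESCs by 1.58 on the log2 scale (adjusted p = 3.24e-06 by limma). The values of Setdb1 between media are therefore also given with the reads of Gm4349.

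To ask how the H3K9 methylation genes differ between the media, naïve and primed ESCs were compared over both rescue lines with limma. Of the 10 genes, 6 were lower in naïve ESCs at an adjusted p under 0.05 (Trim28, Cbx1, Ehmt1, Cbx5, Setdb1 and Suv39h1), 0 were higher and 4 were not called (Atf7ip, Suv39h2, Ehmt2 and Cbx3). Over all tested genes, 51.8% differed between the media and 25.4% were lower in naïve ESCs, so calls in this comparison are common. The median difference of the 10 genes was -0.39, against 0.00177 over all genes. Within single lines, 3 of the 10 were called with WT TET2 (Trim28, Ehmt1 and Cbx1), where 35.9% of all genes were called, and 4 with mutant TET2 (the same 3 and Cbx5), where 35.2% were called. The Tet2 row also had lower means in naïve than in primed ESCs, at 13.27 against 14.83 with WT and 11.12 against 12.99 with mutant TET2. The part of this Tet2 difference in the results between media was not tested.

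**Figure D2:**
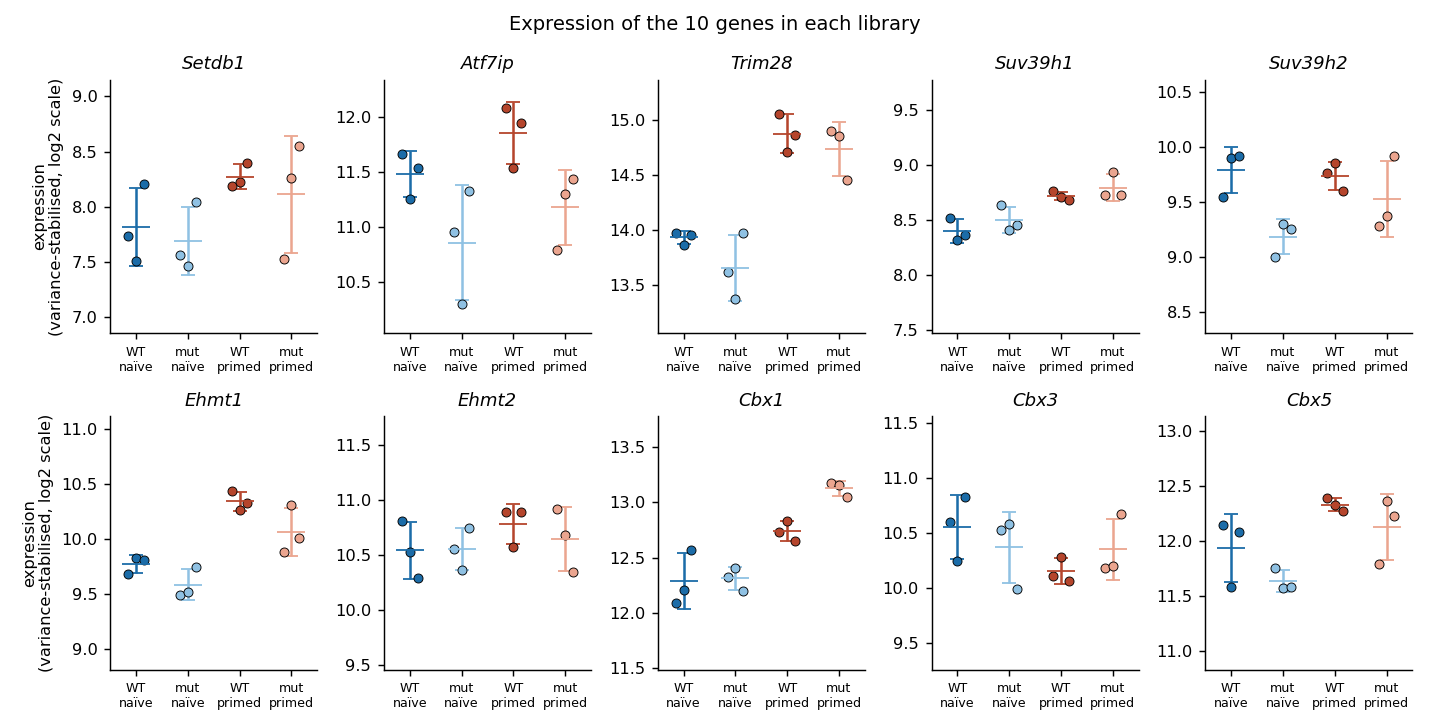
Variance-stabilised expression (log2 scale) of each gene in the 12 libraries by rescue line and medium, with a point per library and the mean ± SD of each group (n = 3). The axes of all panels span the same range, and the naïve libraries of Trim28, Suv39h1, Ehmt1 and Cbx1 all lie below the primed libraries.

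The cofactor gene Trim28 (chromosome 7, 13609501 to 13616384) had the largest difference of the 10. In primed ESCs it was at 15.06, 14.70 and 14.87 with WT TET2 and at 14.90, 14.86 and 14.45 with mutant TET2. In naïve ESCs it was at 13.98, 13.87 and 13.95 with WT and at 13.62, 13.37 and 13.98 with mutant TET2. Every naïve library lay below every primed library, and the log2 difference was -1.01 with a standard error of 0.13 (adjusted p = 9.30e-06 by limma), and the exact permutation test within rescue lines gave p = 0.005, the smallest that its 400 arrangements allow. The difference was -0.94 with WT and -1.08 with mutant TET2 (limma, adjusted p = 0.000974 and 0.000341). With 9736 to 56259 reads per library, counting error is small for Trim28.

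Of the HP1 genes, Cbx1 and Cbx5 fell in naïve ESCs and Cbx3 was not called. Cbx1 (chromosome 11, 96650441 to 96669954) was at 12.73, 12.83 and 12.65 with WT and 13.17, 13.16 and 13.05 with mutant TET2 in primed ESCs. In naïve ESCs it was at 12.09, 12.21 and 12.57 with WT and 12.32, 12.41 and 12.20 with mutant TET2. All naïve libraries lay below all primed libraries, and the log2 difference was -0.63 with a standard error of 0.11 (adjusted p = 0.000131 by limma; exact permutation test, p = 0.005). The fall was -0.45 with WT and -0.82 with mutant TET2, but the interaction that compares them had an adjusted p of 0.976 from limma, so they were not shown to differ.
Cbx5 (chromosome 15, 103021975 to 103070247), which encodes the HP1 protein most tied to constitutive heterochromatin, was at 12.38, 12.32 and 12.27 with WT and 11.79, 12.36 and 12.22 with mutant TET2 in primed ESCs. Its naïve values were 12.14, 11.57 and 12.08 with WT and 11.75, 11.57 and 11.58 with mutant TET2. The media overlapped only through replicate 1 of the mutant line in serum, and the log2 difference was -0.44 with a standard error of 0.13 (adjusted p = 0.00748 by limma; exact permutation test, p = 0.005).

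Cbx3 (chromosome 6, 51420359 to 51433703) spanned 9.997 to 10.83 in the naïve and 10.07 to 10.67 in the primed libraries, a log2 difference of 0.21 (adjusted p = 0.220 by limma). Its counts are uncertain, because 84.3% of the 75-base windows of its coding sequence have an exact copy elsewhere in mm9. The coding sequence was found over at least 80% of its length at 11 other places. The closest copies are the rows Gm6984 (chr14:74354807-74355358, 99.8% identical), with 1308 to 3282 reads, and Gm10068 (chr1:58703532-58704083, 99.6%), with 645 to 1842, against 735 to 1974 for Cbx3. Summing Cbx3 with these and the 3 other rows that hold a copy gave a log2 difference of 0.16 (limma, adjusted p = 0.327), which left Cbx3 uncalled. Within the summed level of the 3 HP1 genes, Cbx3 as counted made up 22.3% ± 1.71 and 20.9% ± 2.73 in naïve ESCs and 13.8% ± 0.503 and 13.4% ± 2.73 in primed ESCs, with WT and mutant TET2 in turn (SD, n = 3 each). On these counts Cbx1 made up most of this level in every group, from 56.6% ± 5.07 to 69.9% ± 4.29 (SD, n = 3 each). These shares leave out the reads of Gm6984, Gm10068 and the other copies, and were not recalculated with them. The share of Cbx3 may thus be too low and those of Cbx1 and Cbx5 too high.

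Among the other methyltransferase genes, Ehmt1 and Suv39h1 fell in naïve ESCs, and Ehmt2 and Suv39h2 were not called. Ehmt1 (chromosome 2, 24646289 to 24775129) was at 10.44, 10.27 and 10.33 with WT and 9.88, 10.31 and 10.01 with mutant TET2 in primed ESCs. Its naïve values were 9.69, 9.83 and 9.81 with WT and 9.49, 9.52 and 9.75 with mutant TET2. No naïve library reached a primed one, and the log2 difference was -0.52 with a standard error of 0.11 (adjusted p = 0.000631 by limma; exact permutation test, p = 0.005). Ehmt2 (chromosome 17, 35035414 to 35050997) spanned 10.29 to 10.81 in the naïve and 10.34 to 10.92 in the primed libraries, a log2 difference of -0.17 (limma, adjusted p = 0.291) whose 95% interval reached from -0.44 to 0.10. The difference between Ehmt1 and Ehmt2 in this respect was not tested.
Suv39h1 (chromosome X, 7638297 to 7651886) was at 8.76, 8.71 and 8.69 with WT and 8.73, 8.93 and 8.72 with mutant TET2 in primed ESCs. In naïve ESCs it was at 8.52, 8.32 and 8.36 with WT and 8.63, 8.41 and 8.46 with mutant TET2. This was a small shift of -0.31 with a standard error of 0.11 (adjusted p = 0.0215 by limma; exact permutation test, p = 0.005), but again without overlap. The call was lost when any of 4 of the 12 libraries was left out (naïve WT replicate 2, naïve mutant replicate 2, primed WT replicate 1 or primed mutant replicate 2), with adjusted p up to 0.0642. Suv39h2 (chromosome 2, 3373087 to 3392303) differed by -0.14 (95% interval -0.42 to 0.13; limma, adjusted p = 0.368). The exons of Suv39h1 and Suv39h2 overlap those of genes on the opposite strand (Gm14820 for Suv39h1, and Dclre1c and Gm13184 for Suv39h2), and these libraries kept no strand. Without overlap between all naïve and all primed libraries, 4 of the 10 genes were lower (Trim28, Cbx1, Ehmt1 and Suv39h1), which was the case for 12.1% of all tested genes.

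Setdb1 itself was at 8.19, 8.22 and 8.40 with WT and 7.52, 8.26 and 8.55 with mutant TET2 in primed ESCs. In naïve ESCs it was at 7.73, 7.51 and 8.21 with WT and 7.56, 7.46 and 8.04 with mutant TET2. The media overlapped, with replicate 1 of the mutant line in serum among the low naïve values and replicate 3 of both naïve lines near the primed ones. The log2 difference was -0.44 (standard error 0.18) and lay just under the threshold (limma, adjusted p = 0.0472), while the exact permutation test gave p = 0.06. The call was kept in only 3 of 12 fits that each left out a library, those without naïve WT replicate 3, naïve mutant replicate 3 or primed mutant replicate 1, and the adjusted p ranged from 0.00558 to 0.118. If 33.1% of the Gm4349 reads, the share of its windows found in the genomic span of Setdb1, were counted for Setdb1, the log2 difference was -0.14 (adjusted p = 0.493 by limma). That share counts windows that match Setdb1 introns, so it may add more reads than the Setdb1 exons share. A share limited to exons was not tried. With all reads of Gm4349 added, the log2 difference was 0.25 (adjusted p = 0.209 by limma). Most windows of Gm4349 are not found in Setdb1, so this sum also holds reads particular to Gm4349. Both settings only add reads to Setdb1. Reads of Gm4349 that were placed in Setdb1 at random were not taken away, which would change the difference in the other direction. How the tied reads were split cannot be read from these values.
Atf7ip (chromosome 6, 136467372 to 136559373) was lower in naïve ESCs by -0.34, which was not called (limma, adjusted p = 0.0961). It was called without naïve mutant replicate 3 or without primed mutant replicate 1 (limma, adjusted p = 0.0243 and 0.0375).

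**Figure D3:**
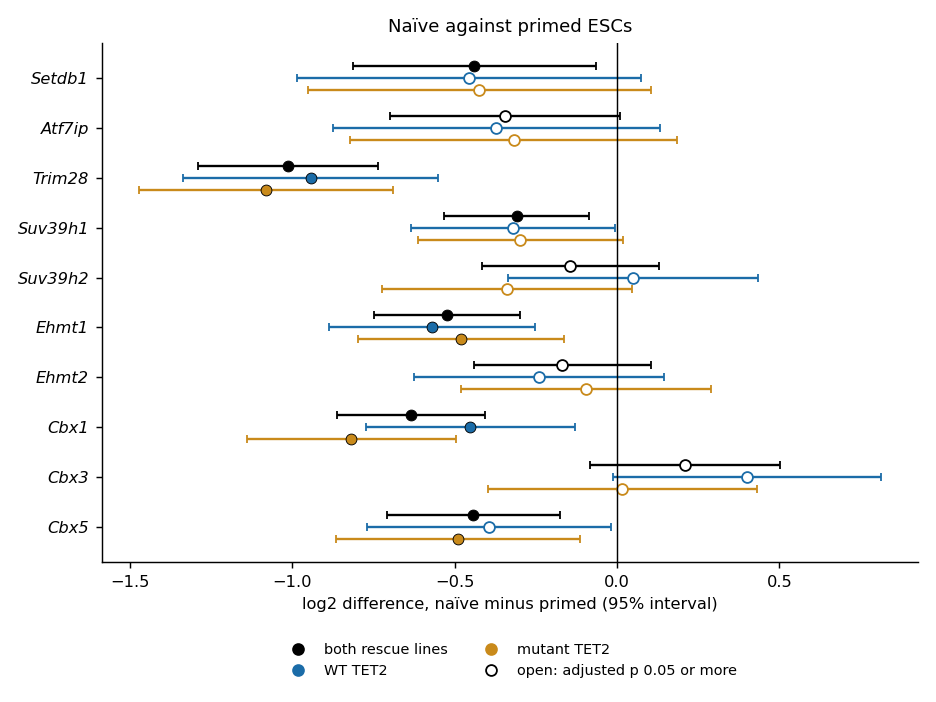
Log2 difference, naïve minus primed, of each gene with its 95% interval, over both rescue lines and in each line. Filled points have an adjusted p under 0.05, and Trim28, Ehmt1 and Cbx1 are filled in all 3 estimates, at -1.01, -0.52 and -0.63 over both lines.

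The 250 bases upstream of the RefSeq start are printed for these 3 genes, which were called in both lines, to show what their promoters hold. The windows come from RefSeq (GRCm38.p6) and were placed in mm9 by exact match, at chr7:13609251-13609500 (Trim28, plus strand), chr2:24775130-24775379 (Ehmt1, minus strand) and chr11:96650199-96650448 (Cbx1, plus strand). Capitals mark GGGCGG, the GC box, or its reverse complement.
Trim28: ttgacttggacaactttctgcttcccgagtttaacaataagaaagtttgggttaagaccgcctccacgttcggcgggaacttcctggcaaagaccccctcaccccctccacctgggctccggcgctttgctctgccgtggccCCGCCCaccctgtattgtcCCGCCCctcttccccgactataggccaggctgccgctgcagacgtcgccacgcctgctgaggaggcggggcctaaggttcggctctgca
Ehmt1: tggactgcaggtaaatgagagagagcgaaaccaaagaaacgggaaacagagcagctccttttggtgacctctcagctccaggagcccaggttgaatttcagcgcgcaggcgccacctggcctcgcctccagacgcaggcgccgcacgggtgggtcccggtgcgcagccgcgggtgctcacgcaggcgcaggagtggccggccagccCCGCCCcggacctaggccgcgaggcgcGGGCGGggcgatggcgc
Cbx1: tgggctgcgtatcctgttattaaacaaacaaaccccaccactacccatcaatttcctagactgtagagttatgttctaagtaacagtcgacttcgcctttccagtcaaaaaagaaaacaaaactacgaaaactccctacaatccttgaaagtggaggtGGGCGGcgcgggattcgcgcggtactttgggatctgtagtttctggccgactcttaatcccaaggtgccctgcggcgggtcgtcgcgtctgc
These windows hold 17, 26 and 16 CpGs in the order printed, against a median of 6 over 32851 promoters. GGGCGG was found on either strand in all 3, and in at least one start window of all 10 genes, called or not, against 32.7% of all promoters. CCAAT was found in 4 of the 10 genes and in none of the 3, against 33.8% of promoters, and CACGTG in 2 of 10, against 6.02%. CCGGAAG was found only in Setdb1 (6.91% of promoters) and TTTGGCGC only in Cbx3 (0.417%), and GCATGCGC and TATAAA (2.26% and 12.4%) in none. Several genes have more than 1 start window, which raises the chance of a match, and a match is no evidence of binding.

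A list of 40 other heterochromatin genes, all of which were tested, was compared between the media in the same fit. In naïve ESCs 5 rose, 17 fell and 18 were not called, and the median difference was -0.16. The 22 called genes are a share near the 51.8% of all tested genes that were called, and 25.4% of all genes fell. All 4 genes of the EHMT partners fell, among them Zfp462, a zinc finger protein that brings EHMT1 and EHMT2 to chromatin, with the largest difference of the list at -2.11 (limma, adjusted p = 1.63e-08). Zfp644, Cdyl and Wiz fell by 0.62, 0.50 and 0.48 on the log2 scale. Of the 12 SETDB1 and TRIM28 partners, 4 fell and 2 rose, again near the 51.8% of all genes. The remodeller gene Smarcad1, whose product binds TRIM28, fell by 1.19 and the KRAB zinc finger gene Zfp57, which keeps methylation at imprinted loci, by 0.57, and Trim24, a relative of Trim28, fell by 0.54. In contrast, Atf7ip2, the paralog of Atf7ip, rose by 0.91 (limma, adjusted p = 0.000140), and Trim66, another relative of Trim28, by 0.60.
Of the 13 HP1 partners, histone chaperones and deacetylases, 7 fell and 1 rose, where 51.8% of all genes were called and 25.4% fell. Both large subunits of the CAF-1 chaperone were called but in opposite directions, Chaf1a at -0.66 and Chaf1b at 0.81 (limma, adjusted p = 0.000209 and 9.19e-05). Lrif1 (listed as 4933421E11Rik), which binds HP1, fell by 1.11, and Atrx and Daxx, which together place histone H3.3, fell by 0.55 and 0.66, as did the remodeller gene Chd4 by 0.61. The 5 genes that the list groups as other H3K9 methyltransferases, without a check of their activity, were mixed. Prdm2 and Mecom fell by 0.88 and 0.75 on the log2 scale, Setdb2 rose by 0.43 and Prdm16 and Prdm9 were not called. Kmt5b (listed as Suv420h1), which methylates H4K20, rose by 0.43, whereas Kmt5c was not called. None of the 4 genes grouped with the HUSH complex, which recruits SETDB1 to other elements, was called, with differences from -0.17 for Morc2a to 0.04. Mecom and Trim66 had at most 26 reads in any library, where the variance-stabilised scale shrinks differences, and on recovered counts with limma-voom they were at -1.90 and 1.56 (adjusted p = 0.000695 and 0.0192). Leaving out single libraries moved the number called from 22 to between 18 and 23, and Setdb2 and Trim66 lost their calls in 5 and 4 of 12 such fits.

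**Figure D4:**
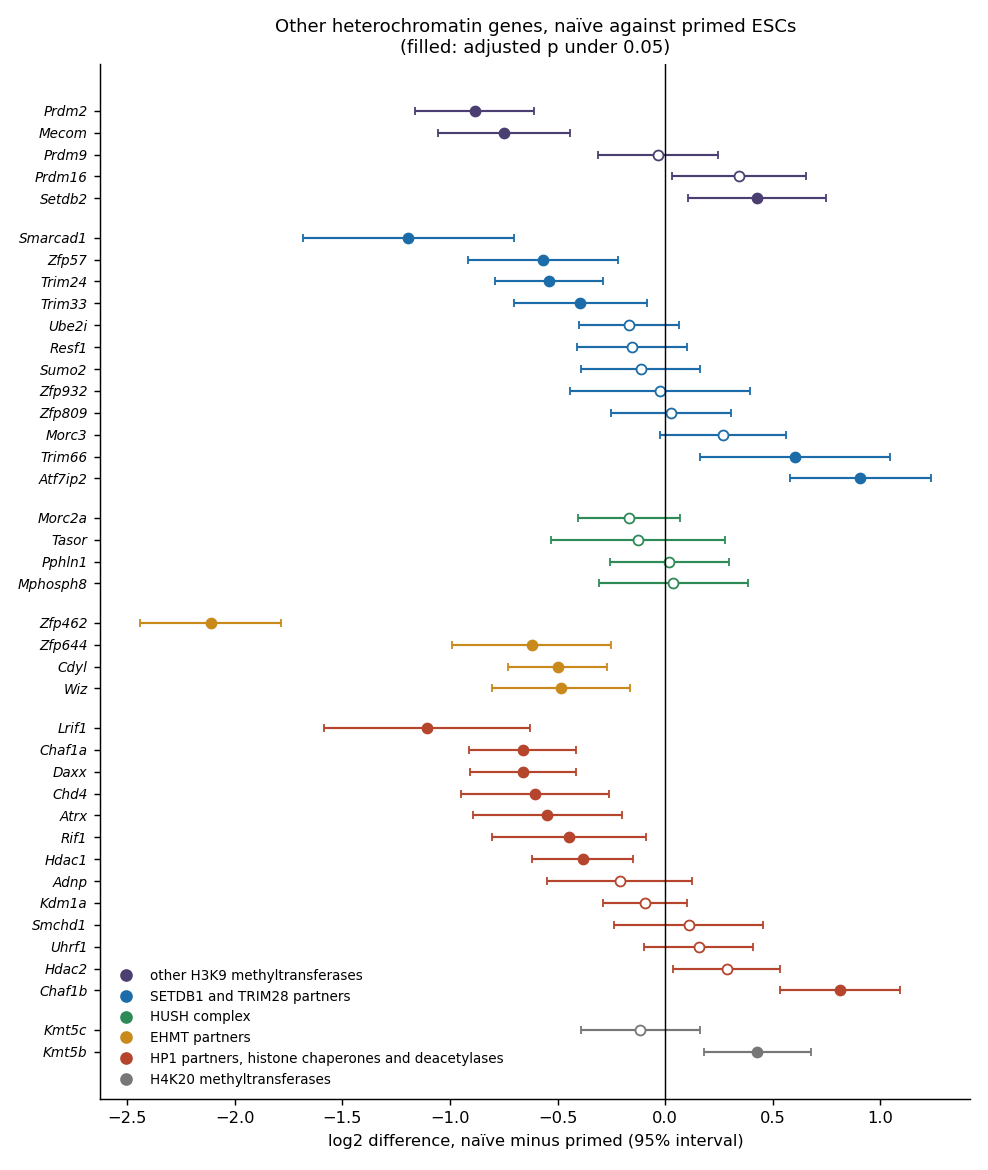
Log2 difference, naïve minus primed, of the 40 other heterochromatin genes with 95% intervals, grouped by role and coloured by group. Filled points have an adjusted p under 0.05. All 4 EHMT partners are filled and below 0, down to -2.11 for Zfp462, and the 4 genes grouped with HUSH are open and near 0.

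The rescue experiment asks what depends on the catalytic activity of TET2, and WT and mutant rescue lines were compared within each medium. The lines did not have matched Tet2 transcript. Its row was at 12.73, 13.09 and 14.001 with the WT and 10.60, 10.81 and 11.95 with the mutant construct in naïve ESCs, and at 14.81, 14.58 and 15.09 against 12.50, 13.20 and 13.27 in primed ESCs. All WT libraries thus lay above all mutant libraries of the same medium, by log2 differences of 2.16 and 1.84 (adjusted p = 0.0154 and 0.0297 by limma), so catalytic activity and Tet2 transcript level cannot be told apart in this comparison. These values are of RNA, and by Western blot the study reported similar levels of WT and mutant TET2 protein in the rescue lines. For the H3K9 methylation genes, 0 of 10 were called in naïve ESCs and 0 of 10 in primed ESCs (limma, adjusted p under 0.05), where 0.0987% and 0.254% of all genes were called. At an unadjusted p under 0.05, 2 of the 10 passed in naïve ESCs (Atf7ip and Suv39h2) and 2 in primed ESCs (Atf7ip and Cbx1), against 13.3% and 16.2% of all genes. The lines did not overlap for 1 of the 10 in naïve and 2 of the 10 in primed ESCs, against 16.8% and 22.4% of all genes. These shares of the 10 genes lie near the background.

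Atf7ip was the gene with the largest difference between the rescue lines in both media. In naïve ESCs it was at 11.66, 11.26 and 11.54 with WT and at 10.96, 10.30 and 11.33 with mutant TET2. In primed ESCs it was at 12.08, 11.54 and 11.95 with WT and at 10.80, 11.31 and 11.44 with mutant TET2. In primed ESCs all WT libraries lay above all mutant libraries. In naïve ESCs WT was higher in 3 of 3 replicate pairs, and 1 mutant library overlapped the WT range. The log2 differences were 0.62 in naïve and 0.68 in primed ESCs (standard error 0.24 each), and neither passed the adjustment over all genes (limma, adjusted p = 0.310 and 0.216). The exact permutation test, which did not use replicate pairs, gave p = 0.2 in naïve and p = 0.1 in primed ESCs, where 0.1 is the smallest that 3 libraries against 3 allow. With the replicate number as a block, Atf7ip was not called either (limma, adjusted p = 0.117 in naïve and 0.0837 in primed ESCs).

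Suv39h2 was higher with WT TET2 in naïve ESCs, at 9.55, 9.90 and 9.92 against 9.003, 9.30 and 9.26 with mutant TET2. The groups did not overlap (exact permutation test, p = 0.1), and the log2 difference of 0.60 (standard error 0.18) was not called (limma, adjusted p = 0.262). Suv39h2 was not called in naïve ESCs with the replicate number as a block either (limma, adjusted p = 0.104). Its primed values were 9.76, 9.85 and 9.60 with WT and 9.29, 9.37 and 9.92 with mutant TET2, which overlapped through mutant replicate 3 and gave a difference of 0.21 (limma, adjusted p = 0.579). The 2 differences were not shown to differ (interaction 0.39, limma, adjusted p = 0.976).
Cbx1 was lower with WT TET2 in primed ESCs without overlap, by a log2 difference of -0.39 (standard error 0.15; exact permutation test, p = 0.1), which was not called (limma, adjusted p = 0.247). In naïve ESCs the difference was -0.02 with a 95% interval of -0.34 to 0.30. The other 7 genes overlapped between the lines in both media, with log2 differences between -0.20 and 0.30 and adjusted p from limma of at least 0.372. For Trim28 the differences were 0.28 in naïve and 0.14 in primed ESCs, with 95% intervals of -0.12 to 0.67 and -0.25 to 0.53. Differences within these intervals are therefore not excluded. The interaction of rescue line and medium was called for 0 of the 10 genes and for 0 of all tested genes (limma), with 0 of the 10 at an unadjusted p under 0.05 against 3.45% of all genes.

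**Figure D5:**
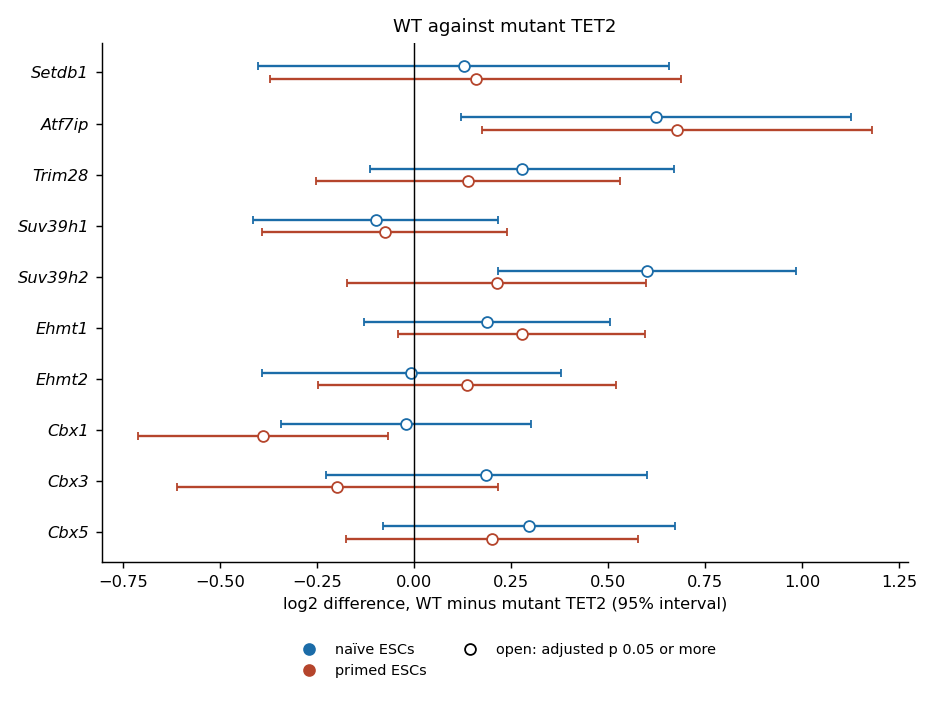
Log2 difference, WT minus mutant TET2, of each gene with its 95% interval in naïve and primed ESCs. All points are open, since no adjusted p was under 0.05, and Atf7ip lies highest, at 0.62 in naïve and 0.68 in primed ESCs.

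The difference between the lines was also averaged over the media. This comparison was added after the values of Atf7ip were seen to be higher with WT TET2 in both media, so for Atf7ip it restates that observation and is no independent evidence of it. It called 3.10% of all genes and 1 of the 10, Atf7ip, at a log2 difference of 0.65 (95% interval 0.29 to 1.00; limma, adjusted p = 0.0478). Suv39h2 was at 0.41 (limma, adjusted p = 0.0797). When the replicate number entered as a block within each medium, Atf7ip had an adjusted p of 0.0110 and Suv39h2 one of 0.0407 from limma, which made 2 of 10, where 11.9% of all genes were called. The Atf7ip call was lost in 8 of 12 fits that each left out a library, and kept without naïve WT replicate 2, naïve mutant replicate 3, primed WT replicate 2 or primed mutant replicate 3 (adjusted p over the 12 fits 0.0181 to 0.140). Besides Tet2 itself, the lines differed in Y-linked genes, since all 14 Y-linked genes that were tested had higher values with WT TET2 in both media, with median log2 differences of 1.35 and 1.48. Catalytic activity, Tet2 transcript level and other differences between these lines cannot be told apart.
Of the 40 other heterochromatin genes 0 were called in either medium and 0 over both (limma), and 10 in naïve and 7 in primed ESCs had an unadjusted p under 0.05, against 13.3% and 16.2% of all genes. Their median difference between WT and mutant TET2 was 0.29 in naïve and 0.17 in primed ESCs, against 0.00318 and 0.00870 over all genes, with 36 and 28 of the 40 above 0. Over both media, 15 of the 40 had an unadjusted p under 0.05, against 23.5% of all genes. With the replicate block 9 of the 40 were called, against 11.9% of all genes.

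Across the 12 libraries, the tested genes whose values followed Setdb1 most closely were Lig4 (Pearson's r = 0.957), Helq (0.937), Neto2 (0.936), Rfwd3 (0.934) and 9530080O11Rik (0.934), out of 14184 genes. Of the H3K9 methylation genes, Cbx5 (0.770), Ehmt1 (0.714) and Atf7ip (0.695) were most like it and ranked 428, 810 and 992, followed by Trim28 (0.580), Suv39h2 (0.503), Suv39h1 (0.471) and Cbx1 (0.459). Ehmt2 and Cbx3 showed no likeness (-0.02 and -0.08). These values are descriptive, since the libraries fall into 4 groups and share the difference between media.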

How the data were processed

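Poly(A)-selected, non-directional RNA-seq libraries were sequenced with single-end reads by the authors, who trimmed the reads with Trim Galore 0.3.3, aligned them to mm9 with TopHat2 2.0.9 and assigned reads with several equally good positions to one at random. The deposited gene values were made with DESeq2 and are variance-stabilised values on a log2 scale that include the authors' size factors, so that differences of genes with few reads (such as Mecom and Trim66) are shrunk. Libraries were grouped by their labels. Inverting the transformation recovered whole reads for 100% of the values (tolerance 0.001), which gave the depth of 8066662 to 21335933 gene reads. For genes with few reads, such as Setdb1, counting error limits the precision, and reads without molecular identifiers are not independent molecules.

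Tests between groups used limma 3.58.1 (R 4.3.3) with an intensity trend, all 12 libraries in 1 fit of 4 groups and Benjamini-Hochberg adjustment over 14185 genes, those with a mean 1 or more above the table's minimum of 3.81. A gene was called at an adjusted p under 0.05. Single values were also compared by two-sided exact permutation tests, within a medium (smallest p 0.1) or of the medium within each rescue line (smallest p 0.005). The procedure was tested on simulated data. Tried as alternatives were limma-voom on recovered counts, a replicate block, other filters, no trend, quantile normalization, median centring, a fit of only 1 medium's 6 libraries, the longest transcript as gene length and each library left out in turn. The comparison over both media, its alternatives and the sums of reads with copies of Cbx3 and Setdb1 were added after the values were seen.

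Gene positions are those of GENCODE M1 on mm9. Lengths are the union of annotated exons, and for Atf7ip, which has 2 adjoining models under this name, their union. Copies of coding sequences were searched with blastn 2.17.0. Figures were drawn with matplotlib 3.10.9, and tables were made with pandas 2.3.3 and numpy 2.4.6 under Python 3.11.15. The genes and lists were chosen with earlier results of these data known. The genes named are the 10 chosen genes, called heterochromatin genes (up to 12 with the largest difference in each direction) and the one with the largest difference in each role, the 5 most like Setdb1, markers and Tet2. Gm4349, Gm6984, Gm10068, Cdyl, Wiz, Prdm9, Prdm16 and Kmt5c were named after their values were seen. The replicate numbers of the labels paired the naïve lines, since same-numbered libraries deviated together (correlations over genes 0.300 to 0.586), but not the primed lines (-0.0652 to 0.189). The repeat table and the other experiments were not analysed here.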

Additional observations from a re-analysis of the deposited data

How the results depend on the processing

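Between media, 6 genes were called, 4 to 7 when a library was left out and 5 or 6 under the other alternatives. The heterochromatin genes called, 22, ranged from 18 to 23 and from 20 to 23 in the same way, and were 23 with the replicate number as a block. Between WT and mutant TET2 in each medium, and for the interaction, 0 genes of either list were called under every alternative. The block changed no call in these comparisons of the 10 genes.

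Over both media, 1 of the 10 genes was called, 0 with no filter and with no trend and 2 with the replicate block, and 0 to 2 when a library was left out, with 2 without primed mutant replicate 3. Of the 40 heterochromatin genes, 0 were called, 1 after quantile normalization, 9 with the replicate block, and 0 to 8 when a library was left out, with 3 without naïve WT replicate 2 and 8 without primed mutant replicate 3. The cause was not tested.

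Signs of small differences between the lines turned in naïve ESCs when a library was left out, for Cbx1 (-0.163 to 0.0779), Ehmt2 (-0.142 to 0.117), Setdb1 (-0.0678 to 0.305) and Cbx3 (-0.00137 to 0.341). They turned in primed ESCs for Setdb1 (-0.135 to 0.377), Trim28 (-0.00177 to 0.225) and Ehmt2 (-0.0159 to 0.273). With all reads of Gm4349, most of whose windows are not found in Setdb1, the Setdb1 difference turned to 0.25 between media and to -0.17 between lines in naïve ESCs. With 33.1% of the Gm4349 reads, a share that counts matches to Setdb1 introns, it was -0.14 (limma, adjusted p = 0.493) and -0.0178. Both settings only added reads to Setdb1, and no reads of Gm4349 were taken away from it. Of 857 recalculated gene values, 14 turned sign, 34 lost and 4 gained a call. Among the values that lost a call were those of Setdb1 between media with no filter (limma, adjusted p = 0.0599) and of Atf7ip over both media with no filter and with no trend (limma, adjusted p = 0.0650 and 0.0611). On recovered counts, Mecom and Trim66 moved from -0.75 and 0.60 to -1.90 and 1.56. Scaling shifted the median of all genes between media by at most 0.03. With 114 reads in its lowest library, Setdb1 is the gene most limited by depth.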
